A study of Homo sapiens with 8 samples.

Results

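The ICAM family, the 5 intercellular adhesion molecules ICAM1 to ICAM5, was followed across 8 stable HEK293T cell lines. The genes were taken by symbol, and their probes were found by matching the transcript accession of each array probe to the RefSeq gene table, which named 19483 genes in all. Of the 5 genes, ICAM1, ICAM2, ICAM3, and ICAM5 each had 1 probe, and no probe was matched to ICAM4. The family was chosen by the signals of these same arrays, so its levels and the differences between its groups are given as a description, without a test.

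HEK293T derives from human embryonic kidney. Each line was a single colony selected with blasticidin S after transfection of a plasmid, and every group held 2 independently isolated clones. The groups were empty vector (#1 and #2), TET1-CDwt (#2 and #5), which carries the catalytic domain of the 5-methylcytosine dioxygenase TET1, MBD-TET1-CDwt (#3 and #10), in which that domain is joined to a domain that binds methylated CpG, and MBD-TET1-CDmut (#9 and #10), the same fusion with an inactive catalytic domain. The fusions are called here the active and the inactive fusion. The question behind the comparisons was whether directing TET1 catalytic activity to methylated DNA raises the expression of silenced genes. The 2 empty vector and 2 TET1-CDwt arrays lay on 1 slide and the 4 arrays of the MBD fusions on the other, so construct and slide cannot be told apart where a fusion is compared with empty vector. TET1-CDwt against empty vector and the 2 fusions against each other are comparisons within a slide.

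Intercellular adhesion molecules are membrane glycoproteins with extracellular immunoglobulin domains that bind integrins on other cells. ICAM1 is induced by inflammatory cytokines through NF-kB on endothelium, epithelium, and leukocytes, whereas ICAM2 is present on resting endothelium and platelets. ICAM3 is found mainly on leukocytes, ICAM4 is a red cell blood group protein, and ICAM5, or telencephalin, is a neuronal protein of the forebrain. Their best known receptors are the β2 integrins, in which the shared β chain ITGB2 pairs with ITGAL, ITGAM, ITGAX, or ITGAD. Inside the cell, ezrin, moesin, and related linkers join ICAM tails to actin.

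In GRCh38.p14 the family lies at 2 places. ICAM2 is at chr17:64002595-64020633. ICAM1, at chr19:10271120-10286615, is followed on chromosome 19 by ICAM4 at chr19:10286955-10288520, ICAM5 at chr19:10289952-10296778, and ICAM3 at chr19:10333776-10339624. The RefSeq windows from 250 bases before to 50 bases after the transcription start are shown for the 3 measured genes of chromosome 19, because these constructs act on or bind methylated CG and the 3 windows differ in CG content. Every CG is in capitals and the sequences run 5′ to 3′ along the gene. The ICAM1 window is chr19:10270870-10271169 on the plus strand, the ICAM5 window is chr19:10289702-10290001 on the plus strand, and the ICAM3 window is chr19:10339575-10339874 on the minus strand, the outermost of 3 starts.
ICAM1: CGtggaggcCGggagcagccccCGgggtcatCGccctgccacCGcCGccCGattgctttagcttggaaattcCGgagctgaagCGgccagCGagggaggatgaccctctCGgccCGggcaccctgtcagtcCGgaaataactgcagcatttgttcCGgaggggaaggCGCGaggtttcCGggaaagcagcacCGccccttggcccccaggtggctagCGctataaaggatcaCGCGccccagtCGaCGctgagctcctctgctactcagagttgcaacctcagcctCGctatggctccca
ICAM5: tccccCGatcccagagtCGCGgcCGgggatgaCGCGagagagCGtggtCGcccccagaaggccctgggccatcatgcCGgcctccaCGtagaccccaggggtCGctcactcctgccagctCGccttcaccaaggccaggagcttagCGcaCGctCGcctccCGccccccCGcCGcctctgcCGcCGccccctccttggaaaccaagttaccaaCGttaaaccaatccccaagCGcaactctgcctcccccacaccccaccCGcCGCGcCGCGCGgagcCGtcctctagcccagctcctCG
ICAM3: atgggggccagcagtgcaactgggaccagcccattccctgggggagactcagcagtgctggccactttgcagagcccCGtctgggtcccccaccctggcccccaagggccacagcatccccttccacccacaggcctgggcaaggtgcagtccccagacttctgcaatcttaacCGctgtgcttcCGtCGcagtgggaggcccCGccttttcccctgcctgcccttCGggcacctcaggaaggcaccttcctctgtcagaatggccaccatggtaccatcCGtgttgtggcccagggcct

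The ICAM1 window held 24 CG, the ICAM5 window 30, and the ICAM3 window 7, against a median of 14 over 35116 windows. Fewer CG were found in 66.1% of all windows than in ICAM1, in 77.6% than in ICAM5, and in 36.8% than in ICAM3. The other 2 ICAM3 windows of the table, at starts inside the gene, held 14 and 19 CG, with an observed to expected ratio of 0.40 and 0.66. The ratio of observed to expected CG was 0.77, 0.89, and 0.23 in the same order. Of the letters searched on both strands, CCGGAA occurred 4 times in the ICAM1 window, where the overlapping shorter GGAA occurred 7 times and TTCNNNGAA once. The shares of all windows with at least 1 match were 17.2% for CCGGAA, 95.5% for GGAA, and 7.66% for TTCNNNGAA. GATA had no match in the ICAM1 window and was present in 49.7% of windows. No methylation was measured on these arrays, and no window of ICAM2 was read.

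Signals are given on a normalized log2 scale, the log2 of the processed intensity minus the 75th percentile of the array, so that 0 is the brightness of the 75th percentile probe. This percentile was an intensity of 328 to 527 across the arrays, and the dimmest probe called well above background by the scanner software lay between -6.01 and -5.51. The number of arrays, 2 in each group, limits the precision. The host cell markers KRT8, KRT18, VIM, CDH2, and PAX2 were well above background on all 8 arrays. The probes of TET1 (2.61 to 2.94) did not separate the constructs, and whether they lie inside the cloned domain is not known. MBD2 gave 1.25 to 1.65, B2M 2.95 to 3.13, and ACTB 7.0 to 7.97.

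ICAM2 (NM_000873) was higher in both clones of the active fusion, MBD-TET1-CDwt, than in any clone of empty vector or the inactive fusion, and it was highest of all in a single clone of TET1-CDwt. The normalized log2 level was -4.35 in empty vector #1 and -6.04 in empty vector #2, the latter not well above background. It was 0.40 in TET1-CDwt #2 and -5.59 in TET1-CDwt #5. It was -1.94 and -1.27 in MBD-TET1-CDwt #3 and #10, and -3.62 and -4.84 in MBD-TET1-CDmut #9 and #10. The TET1-CDwt clones therefore enclosed every other clone but empty vector #2, and the inactive fusion clones overlapped those of empty vector. In processed intensity, ICAM2 ran from 6.78 in empty vector #2 to 695 in TET1-CDwt #2, with 91.2 and 136 in the active fusion clones.

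**Figure D1:**
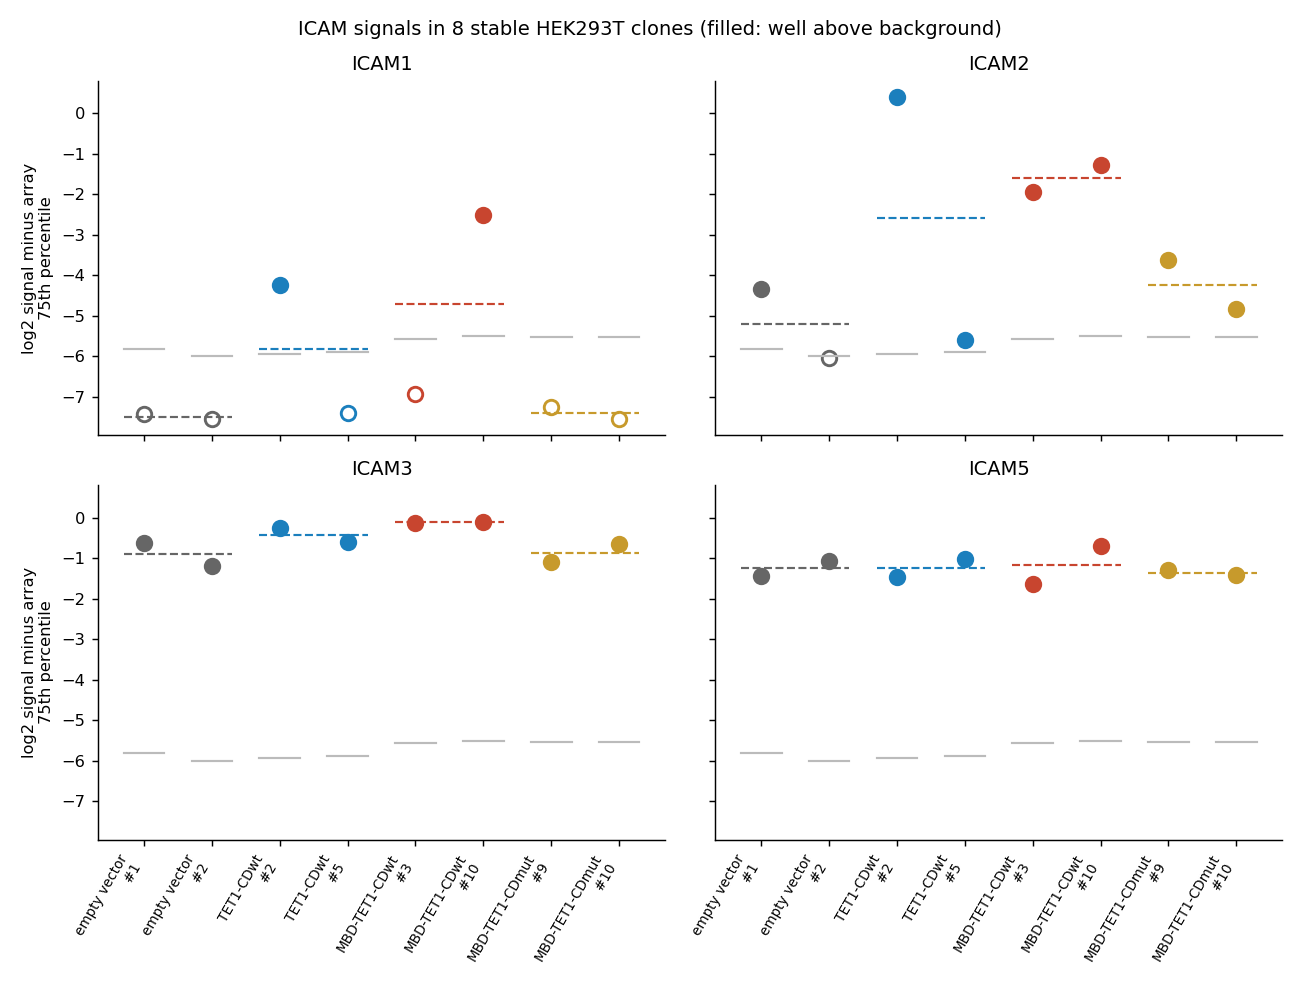
Normalized signal (log2 intensity minus the array 75th percentile) of the 4 measured ICAM genes on each of the 8 arrays. Filled circles are well above background and open circles are not, grey ticks are the lowest signal well above background on that array, and dashed lines are the means of 2 clones. ICAM2 reaches 0.40 in TET1-CDwt #2 and ICAM1 rises above background in TET1-CDwt #2 and MBD-TET1-CDwt #10, whereas ICAM3 and ICAM5 stay well above background throughout.

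As group means, the ICAM2 level was -1.61 ± 0.47 in the active fusion (SD, n = 2), -2.59 ± 4.24 in TET1-CDwt, -4.23 ± 0.87 in the inactive fusion, and -5.20 ± 1.19 in empty vector. No neighbours in this order differed beyond their spread, which was widest in TET1-CDwt. The active fusion was 2.62 above the inactive fusion and 3.59 above empty vector on the log2 scale. Both differences were larger than the SDs of the groups compared, with 2 clones each. Since RNA of a whole clone was measured, more cells with ICAM2 and more ICAM2 RNA per cell cannot be told apart. With dim signals set to the lowest signal well above background, ICAM2 was 11.9-fold higher in the active fusion than in empty vector, and 9.45-fold and 15.0-fold higher in its clones #3 and #10 taken singly. Within the slide of the fusions, ICAM2 was 6.16-fold higher in the active fusion than in the inactive fusion, a log2 difference of 2.62. The mean of the inactive fusion was 1.93-fold above empty vector, with clone #9 at 2.96-fold and clone #10 at 1.26-fold. This last difference, 0.97 on the log2 scale, was 0.12 without empty vector #2. With another background correction (normexp, offset 50), the log2 difference of 3.59 between the active fusion and empty vector was 1.49, and that between the fusions was 1.25.

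The mean of TET1-CDwt was 6.0-fold above empty vector, and a single clone carried it. TET1-CDwt #2 was 47.9-fold above empty vector, whereas TET1-CDwt #5 was at 0.753 of it. Without TET1-CDwt #2 the log2 difference of 2.60 became -0.39, and without TET1-CDwt #5 it was 5.60. ICAM2 was thus 63.6-fold apart between these clones, a log2 gap of 5.99, which was the largest among the 23391 probes well above background in at least 1 of them. In the other groups the ICAM2 gap between clones was 1.66 for empty vector, 0.67 for the active fusion, and 1.23 for the inactive fusion, and 1.47%, 25.5%, and 0.901% of probes had a gap at least as large. The ICAM2 probe had 1 spot on each array, so no repeat of its signal within an array was measured.

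ICAM1 (NM_000201) was seen above background in 2 of the 8 clones, TET1-CDwt #2 and MBD-TET1-CDwt #10. Its normalized log2 level was -4.24 in TET1-CDwt #2 and -2.51 in MBD-TET1-CDwt #10. The other clone of each construct gave -7.40 (TET1-CDwt #5) and -6.94 (MBD-TET1-CDwt #3), empty vector gave -7.43 and -7.55, and the inactive fusion gave -7.24 and -7.55, all of them not well above background. The signal of these 6 clones is an upper limit and does not show that ICAM1 was absent. Against empty vector at its lowest measurable signal, TET1-CDwt #2 was at least 3.20-fold higher in ICAM1 and MBD-TET1-CDwt #10 at least 10.6-fold higher.

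The ICAM1 probe was printed in 10 spots, which shows how far a single array repeats itself. All 10 spots were well above background on TET1-CDwt #2, from -4.44 to -4.02 with an SD of 0.14, and on MBD-TET1-CDwt #10, from -2.66 to -2.39 with an SD of 0.08. On the other 6 arrays 0 spots were. The signal was an intensity of 28.0 and 57.7 on these 2 arrays and between 2.04 and 2.85 elsewhere. Spots of an array share its RNA and measure the array, not the construct.

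**Figure D2:**
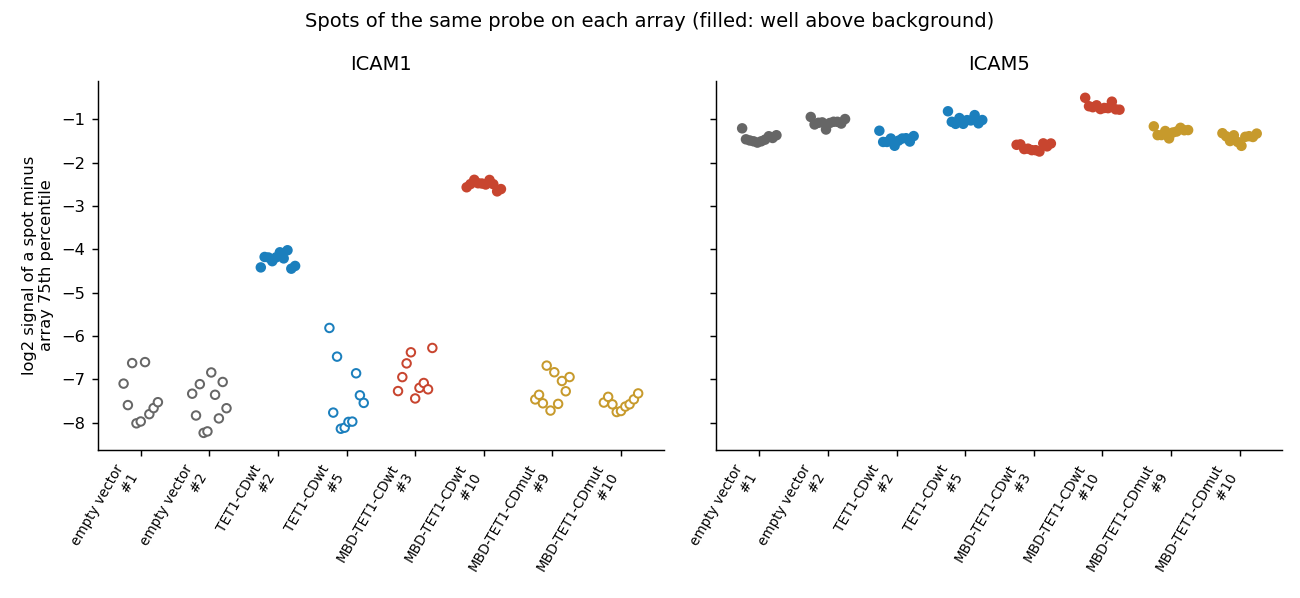
Normalized log2 signal of the single spots of the ICAM1 and ICAM5 probes on each array, with up to 10 spots an array after outlier spots were left out. Filled circles are spots well above background. The ICAM1 spots of TET1-CDwt #2 and MBD-TET1-CDwt #10 form tight groups above all others, and the ICAM5 spots are well above background on every array.

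The group means of ICAM1 hide this division. They were -4.72 ± 3.13 in the active fusion, -5.82 ± 2.24 in TET1-CDwt, -7.40 ± 0.22 in the inactive fusion, and -7.49 ± 0.09 in empty vector (SD, n = 2), and no pair of neighbours in that order differed beyond the spread. With only the dim signals of the lower group set to the lowest signal well above background, the mean of the active fusion was 2.28-fold above empty vector. It was 1.75-fold above the inactive fusion, with 1 of 2 clones measured. TET1-CDwt, also with 1 of 2 clones measured, had a mean at least 1.07-fold above that of empty vector. Without MBD-TET1-CDwt #10, the log2 difference of 2.77 from empty vector became 0.55, and without TET1-CDwt #2 the difference of 1.67 became 0.09. With normexp these differences were 0.66 and -0.01.

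Between clones, MBD-TET1-CDwt #10 exceeded #3 in ICAM1 by at least 8.33-fold, and 0.348% of 22670 probes had a gap as large. TET1-CDwt #2 exceeded #5 by at least 3.14-fold, where the share was 1.45%. ICAM2 was higher in the same clone of both pairs.

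ICAM3 (NM_002162) was measured on all 8 arrays and moved within a narrow range. Its normalized log2 level was -0.61 and -1.19 in empty vector, -0.26 and -0.61 in TET1-CDwt, -0.12 and -0.11 in the active fusion, and -1.09 and -0.64 in the inactive fusion. The active fusion clones were thus the highest, though TET1-CDwt #2 was close to them. Its mean in the active fusion was 1.73-fold above empty vector, a log2 difference of 0.79 against SDs of 0.01 and 0.41, and 1.68-fold above the inactive fusion. TET1-CDwt was 1.39-fold and the inactive fusion 1.03-fold above empty vector, and the latter difference turned from 0.04 to -0.25 without empty vector #2. By mean level the active fusion came first, then TET1-CDwt, the inactive fusion, and empty vector. The last pair overlapped, and TET1-CDwt #5 lay close to MBD-TET1-CDmut #10 and empty vector #1.

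ICAM5 (NM_003259), the neuronal member, was also measured on all 8 arrays and showed no order by construct. The levels were -1.43 and -1.07 in empty vector, -1.46 and -1.01 in TET1-CDwt, -1.64 and -0.69 in the active fusion, and -1.28 and -1.42 in the inactive fusion. The ranges of all 4 groups overlapped, and that of the inactive fusion lay inside the other 3. The differences between group means were 1.01-fold to 1.14-fold. Both the lowest and the highest level came from the active fusion, 1.93-fold apart, with #10 above #3. The 10 spots of its probe had an SD of 0.07 to 0.10 on an array.

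By the size rule, a gene counted as higher when it was at least 2-fold apart and both arrays of the brighter group measured it well above background. ICAM2 was the 1 of 4 measured members that met it, in TET1-CDwt and in the active fusion against empty vector and in the active fusion against the inactive fusion, and no member met it for a fall. Over all 14409 genes the share counted as higher was 0.347%, 1.53%, and 1.55% in these comparisons, and 0.423% in the inactive fusion against empty vector. The share counted as lower was 0.347% in TET1-CDwt, 0.992% in the active fusion, and 0.326% in the inactive fusion against empty vector, and 1.28% in the active fusion against the inactive fusion. Nothing is read from this count, since the levels chose the family.

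Over the 8 arrays, Pearson's r between the normalized levels was 0.79 for ICAM1 and ICAM2, 0.74 for ICAM2 and ICAM3, and 0.65 for ICAM1 and ICAM3. It was 0.46 for ICAM1 and ICAM5, -0.16 for ICAM2 and ICAM5, and -0.08 for ICAM3 and ICAM5. These points share 4 constructs and 2 slides, most ICAM1 values are below background, and the coefficients are descriptions. The 5 genes with the pattern most like ICAM2 among 14408 others were PHACTR3 (r = 0.98), a regulator of protein phosphatase 1 and actin, HSD11B2 (0.96), which inactivates cortisol in kidney, CD82 (0.95), a tetraspanin, FAM81A (0.93), and HVCN1 (0.93), a voltage-gated proton channel. They lie on chromosomes 20, 16, 11, 15, and 12, none of them beside an ICAM gene. Their span was smaller than that of ICAM2. PHACTR3 ran from -2.85 in TET1-CDwt #5 to -1.56 in TET1-CDwt #2, with -2.14 and -1.82 in the active fusion. HVCN1 ran from -6.48 in empty vector #2 to -3.12 in TET1-CDwt #2 and was well above background on 5 arrays.

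The partners of the family were grouped into 6 lists of receptors, other binding partners, linkers, shedding proteases, other immunoglobulin adhesion molecules, and NF-kB and cytokine inducers. Of their 75 genes, 74 had a probe and 50 were tested. limma, fitted to all 8 arrays over 22530 probes with Benjamini-Hochberg adjustment, called 0 of the 50 in any of the 4 comparisons. The lowest adjusted p was 0.486, for IL1R1 of the inducer list in the active fusion against the inactive fusion. IL1R1, named after its values were seen, gave -4.77 and -4.60 in the active fusion and -4.78 and -5.50 in empty vector. It gave -6.14 and -5.94 in the inactive fusion, neither well above background. The share of all probes called was 0% in TET1-CDwt and in the inactive fusion, 0.115% in the active fusion against empty vector, and 0.102% in the active fusion against the inactive fusion. At an unadjusted p under 0.05, 564, 1487, 603, and 1541 of the 22530 probes passed, in the order TET1-CDwt, the active fusion, and the inactive fusion against empty vector and the active fusion against the inactive fusion. Counted by the brightest probe of a gene, 1, 1, 1, and 3 of the 50 partner genes passed, against 1.85%, 6.28%, 2.1%, and 6.76% of all genes in the same order. By its brightest probe, no gene of the 50 met the 2-fold size rule in any comparison. Another probe of ITGA4 had a log2 difference of -1.23 in the active fusion against empty vector (limma adjusted p 0.539). Against the inactive fusion that probe differed by -0.88 (limma adjusted p 0.685). Without empty vector #2, 1 partner gene, ITGAL, was called in each comparison with empty vector, and without MBD-TET1-CDmut #10, 1 gene, FGA, was called in both comparisons of the inactive fusion.

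The β2 integrin receptors were dim. ITGB2, the shared β chain, and ITGAX were well above background on 0 arrays. ITGAL, the α chain of LFA-1, was well above background on empty vector #1 alone, at -4.83, and lay between -8.11 and -7.41 on the other 7 arrays. ITGAM was between -5.22 and -4.87 on all 8 arrays and well above background on 7, and ITGAD was well above background on 2. The 1 tested gene of this list, ITGAM, had a difference of -0.02 between the active fusion and empty vector.

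Among the other binding partners, 6 of 11 genes were tested, with a median log2 difference of 0.01 in the active fusion against empty vector, where the median of all 14409 genes was also 0.01. The fibronectin and vitronectin receptor chain ITGAV ran from 0.74 to 1.26, ITGB1 from -1.95 to -1.22, and ITGA4, the α chain of VLA-4, from -2.66 to -1.68. FGA, a fibrinogen chain, was named after its values were seen. The brightest of its 3 probes was well above background on 2 arrays, TET1-CDwt #5 at -5.28 and MBD-TET1-CDwt #10 at -3.88. Another of its probes was 3.18 higher on the log2 scale in MBD-TET1-CDmut #9 than in empty vector, so the brightest probe does not show every clone with FGA signal.

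The cytoplasmic linkers were all present, with 10 of 10 genes well above background on all 8 arrays. Against empty vector their median log2 difference was 0.09 in the active fusion, 0.09 in TET1-CDwt, and 0.08 in the inactive fusion. Cortactin (CTTN) ran from 2.83 to 3.53, filamin A (FLNA) from 1.88 to 3.06, and ezrin (EZR) from 1.96 to 2.58. Of the shedding proteases, 3 of 5 genes were tested. ADAM17 ran from -0.49 to 0.01, ADAM10 from -1.64 to -1.09, and MMP9 from -3.71 to -3.11, and their median difference was -0.31 in the active fusion against empty vector.

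**Figure D3:**
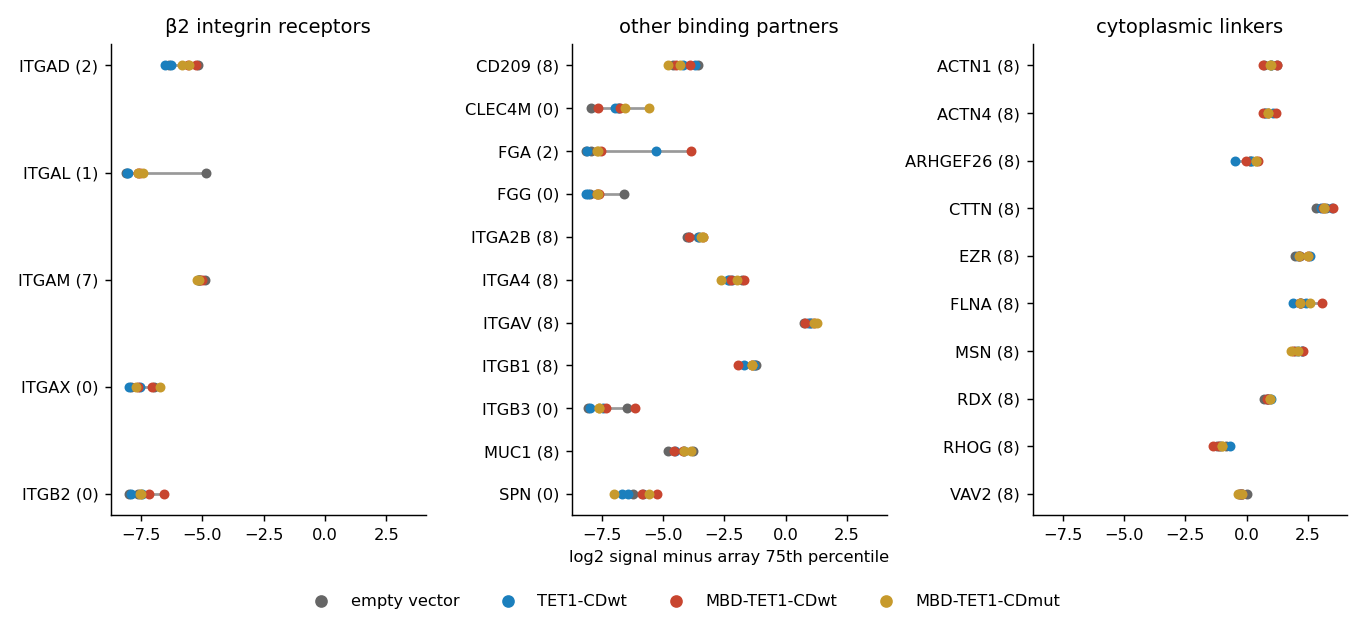
Normalized log2 signal on the 8 arrays, coloured by construct, for the β2 integrin receptors, the other binding partners, and the cytoplasmic linkers of the ICAM family, with the number of arrays well above background after each symbol. Lines join the lowest and highest array of a gene, and levels of different probes are not to be compared. ITGB2 and ITGAX are well above background on 0 arrays, and all linkers on 8.

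Of the 22 other immunoglobulin adhesion molecules, 15 were tested, with a median difference of -0.14 in the active fusion and -0.02 in TET1-CDwt against empty vector. The nectins NECTIN2 (3.20 to 3.79) and NECTIN3 (1.15 to 1.72) and the cell adhesion molecule CADM1 (2.11 to 2.55) were present on all arrays. VCAM1, the other cytokine-induced endothelial ligand of leukocytes, and PECAM1 were well above background on 0 arrays. Of the 22 NF-kB and cytokine inducers, 15 were tested, with a median difference of 0.07 in the active fusion and 0.03 in TET1-CDwt against empty vector. The inhibitor gene NFKBIA, itself a target of NF-kB, gave 1.07 and 0.81 in empty vector, 1.04 and 0.85 in TET1-CDwt, 1.34 and 1.51 in the active fusion, and 0.95 and 0.95 in the inactive fusion. Both clones of the active fusion were above the other 6, but the limma adjusted p was 0.738 against empty vector and 0.710 against the inactive fusion. The interferon receptor IFNGR1 ran from 2.11 to 2.27 and the transcription factor SP1 from 0.89 to 1.01. TNF, named after its values were seen, was well above background on MBD-TET1-CDwt #10 alone, at -4.28, and its part in the ICAM1 level of that clone was not tested.

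Since ICAM1 and ICAM2 differed between clones, the partners were also compared between clones. In TET1-CDwt, 2 of the 50 partner genes were at least 2-fold apart, against 5.41% of all genes, and both were lower in #2. They were PVR, a nectin-like receptor, by 2.15-fold and TNFAIP3, a target and inhibitor of NF-kB, by 2.11-fold. In the active fusion, 2 of the 50 were, against 11% of all genes. JAM2, a junctional adhesion molecule, was 2.28-fold higher in #10 and L1CAM, a neural adhesion molecule, was 2.17-fold lower in #10.

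Endothelial cells carry ICAM2 and leukocytes ICAM3, so markers of both were read. Of 12 endothelial markers, 7 were well above background on 0 arrays, namely KDR, TEK, TIE1, ERG, CLDN5, EMCN, and ROBO4. The summed linear level of the list was 1.07 to 1.22 in empty vector, 1.03 to 1.22 in TET1-CDwt, 0.814 to 0.945 in the active fusion, and 1.17 to 1.23 in the inactive fusion, in units of the array 75th percentile. FLI1 gave 0.389 and 0.515 of it in the active fusion and 0.709 to 0.855 in the other clones. Without FLI1 the sum was 0.365 to 0.410 in empty vector, 0.307 to 0.365 in TET1-CDwt, 0.426 to 0.429 in the active fusion, and 0.404 to 0.410 in the inactive fusion. The order of the constructs thus turned with that gene, and the median log2 difference of the 4 tested markers was 0.09 in the active fusion against empty vector. FLI1 itself was 1.70-fold lower in the active fusion than in empty vector (limma adjusted p 0.563). It was 1.77-fold lower than in the inactive fusion (limma adjusted p 0.520). At an unadjusted limma p under 0.05, 1 of the 4 passed in each of these comparisons, against 6.28% and 6.76% of all genes. The named members were the ETS factor FLI1 (-1.36 to -0.23), MMRN2 (-3.26 to -2.22), and VE-cadherin, CDH5 (-3.06 to -2.68). Of 7 leukocyte markers, 6 had a probe and 5 were well above background on all 8 arrays, with CD3E on 0. The summed level was 0.455 to 0.509 in empty vector, 0.497 to 0.501 in TET1-CDwt, 0.555 to 0.576 in the active fusion, and 0.452 to 0.503 in the inactive fusion. Both clones of the active fusion were thus above all other clones in this sum. CORO1A, the brightest gene of this sum, gave -1.68 and -1.66 in the active fusion and -2.11 to -1.89 in the other clones. Its limma adjusted p was 0.812 in the active fusion against empty vector, and the sum was not read without it. The actin regulator CORO1A ran from -2.11 to -1.66, the monocyte receptor CD14 from -4.01 to -3.00, and the myeloid transcription factor SPI1 from -4.55 to -3.88. The part of these markers in the ICAM levels was not tested.

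No gene beside the family passed the test between constructs. Of the 20 nearest named protein-coding genes around ICAM2, 10 on each side, all had a probe and 13 were tested, and none met the 2-fold size rule or was called by limma, the lowest adjusted p being 0.662. At an unadjusted p under 0.05, 0, 2, 1, and 1 of the 13 passed in the same order of comparisons as above, against the 1.85%, 6.28%, 2.1%, and 6.76% of all genes. Their median difference was -0.12 in the active fusion and 0.05 in TET1-CDwt against empty vector. Between clones, the muscle sodium channel gene SCN4A was 2.43-fold apart in TET1-CDwt, with #2 (-2.96) above #5 (-4.24), and 2.49-fold apart in the active fusion, with #10 (-3.50) above #3 (-4.81), the direction of ICAM2 in both pairs. It was the 1 of 13 at least 2-fold apart in each pair, against 5.41% of all genes in TET1-CDwt and 11% in the active fusion. In the active fusion, 25.5% of probes had a gap at least as large as that of ICAM2. Around the chromosome 19 genes, 21 of 23 neighbours had a probe and 20 were tested, and none met the 2-fold rule or was called by limma, the lowest adjusted p being 0.697, with 0, 1, 1, and 1 of the 20 at an unadjusted p under 0.05. Between the clones of the active fusion, 4 of the 20 were at least 2-fold apart, against 11% of all genes. Of these, ANGPTL6 and S1PR2 were higher in #10 and ZGLP1 and AP1M2 lower. In TET1-CDwt it was 1 of 20, against 5.41% of all genes. This was the readthrough gene PPAN-P2RY11, which was lower in #2 and whose sequence is shared with its component genes.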

How the data were processed

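Total RNA of 8 stable HEK293T lines, labelled with Cy3, was hybridized to 1-colour Agilent arrays. Each deposited intensity is a spot signal that Agilent Feature Extraction had corrected for background, with no scaling between arrays. The version is 9.5.1 per the labels and 10.7.3.1 per the file headers. The deposited series table held the same values in all 44495 rows.

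Control and outlier spots (213 to 269 an array) were left out, the log2 intensity minus the array 75th percentile was averaged over spots of a probe, and a probe was well above background if over 50% of its spots were. Of 34127 probes, 74.5% were named through RefSeq (GRCh38.p14), and 63.2% to 68.2% were well above background on an array. A gene was read by its brightest probe. limma 3.58.1 (R 4.3.3) was fitted with 4 group means and 4 residual degrees of freedom to 22530 probes, those measured well above background by both arrays of at least 1 group, and was tested on simulated data. Folds set dim signals of the dimmer group, and clone gaps those of both clones, to the lowest signal well above background, if higher.

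The ICAM genes and all gene lists were chosen with earlier results of these data known. Named genes were the family, TET1, MBD2, B2M, and ACTB, list members called by limma or 2-fold apart, the 3 highest by mean signal in each list, the 5 most like ICAM2, and neighbours 2-fold apart. Genes apart between clones and those with values at background were named after their values were seen. ICAM4, NFKB2, and LYZ were not analysed here. The result of 1 leukocyte marker is not reported here, and its list was summed without it. Tables and figures were made in Python 3.11.15 with pandas 2.3.3, numpy 2.4.6, and matplotlib 3.10.9. The alternatives were another background correction, other scaling, floors, filters, fits, and priors, and leaving out each clone.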

Additional observations from a re-analysis of the deposited data

How the results depend on the processing

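Over the 4 comparisons and all alternatives, the difference of the ICAM1 means moved by less than 1 SD between clones (the larger of the 2 groups) in 31 of 32 results. It was 30 of 32 for ICAM2 and 32 of 32 each for ICAM3 and ICAM5, a wide margin where SDs reached 4.24. With 2 clones a group, leaving out 1 moves a mean by less than the SD of its group, so those results could not count as moved. The tally is therefore no measure of robustness. With normexp (offset 50) on the median spot signal, chosen after seeing the data because these files have no column of mean signal, the ICAM2 difference was 1.49 between MBD-TET1-CDwt and empty vector and 1.25 between MBD-TET1-CDwt and MBD-TET1-CDmut. Under it, TET1-CDwt against empty vector went from 2.60 to 1.41 for ICAM2 and from 1.67 to -0.01 for ICAM1, and the ICAM1 difference of MBD-TET1-CDwt went from 2.77 to 0.66 against empty vector and from 2.68 to 0.58 against MBD-TET1-CDmut. By its construction the offset shrinks differences of dim probes. With dim signals at the lowest signal well above background, the ICAM1 difference between MBD-TET1-CDmut and empty vector was 0.38, and both groups were below background. Of the 5 genes most like ICAM2, 3 were also among the 5 under quantile normalization and 1 under Spearman correlation, and the cause was not tested.

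The number of partner genes called by limma ranged from 0 to 1 when a clone was left out. It was 1, ITGAL, in each comparison with empty vector without empty vector #2, which leaves empty vector #1 as the only array of its group, and 1, FGA (another of its probes), in both comparisons of MBD-TET1-CDmut without clone #10. The lone array was assumed to vary like the other groups. The other 55 results for partner genes kept a count of 0. No scaling moved the median of all genes by 0.1 or more.

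Leaving out a clone took the ICAM2 difference between TET1-CDwt and empty vector from -0.39 to 5.60, and that between MBD-TET1-CDwt and empty vector from 2.75 to 4.44. The ICAM1 difference between MBD-TET1-CDmut and empty vector ranged from -0.06 to 0.25, with both groups below background. No paired analysis was possible because the clones were isolated independently, and a clone number shared by 2 groups does not pair them. Slide could not be fitted as a block, since each group lies on 1 slide. The alternative with every other probe gave no value, since each ICAM gene has 1 probe. Levels below the lowest signal well above background, between -6.01 and -5.51, are limits only.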
